A study of Homo sapiens with 40 samples.

Results

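HRG-BT474R was compared directly with EGF-BT474R at 24 h, using 4 of the 40 RNA-seq libraries of the series, 2 for each ligand. BT474 is a HER2-positive breast ductal carcinoma line that responds to trastuzumab, an antibody against HER2, and BT474R is a resistant clone derived from it by culture with the antibody. All groups were kept in medium low in serum before the ligand was added, and the 24 h groups received 10 ng/mL of heregulin (HRG), 50 ng/mL of EGF or water as the vehicle in the same medium. Each ligand was used at 1 dose, the doses differed, and BT474R is 1 clone, so a ligand cannot be told apart from its dose and the results describe this clone. The comparison addressed which transcripts depend on the ligand rather than on ligand addition as such. Genes called here are DEGs, with a Benjamini-Hochberg adjusted p under 0.05 by edgeR (quasi-likelihood test), levels are CPM, that is, counts scaled to the size of the library, and the vehicle libraries of 24 h are given for reference only, outside the test.

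EGF binds EGFR, whereas HRG, a neuregulin, binds ERBB3 and ERBB4, and each ligand brings its receptor into a pair with HER2, the product of ERBB2. Both routes feed the MAP kinase and PI3K cascades, which induce immediate early genes within minutes and then inhibitors that feed back on the same cascades. Interferon genes form a separate program, in which STAT factors with IRF9 bind the ISRE element, STAT dimers bind the GAS element and IRF1 is induced and acts on overlapping sites. In breast epithelium, GATA3, FOXA1 and ESR1 maintain the luminal state.

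The libraries held between 21848851 and 26269545 counts, and 3 counts in a library corresponded to between 0.118 and 0.138 CPM. The HRG libraries of 24 h stood further apart than any other BT474R pair. Among 11639 genes with at least 5 CPM, the difference between replicates on the log2(CPM + 1) scale had an SD of 0.257 in HRG-BT474R, against 0.122 in EGF-BT474R, 0.171 in the vehicle pair and between 0.0991 and 0.140 at the other time points. It was 1 or more in 59 genes with HRG, of which 45 were higher in replicate 2, and in 0 genes with EGF. SPHK2, a sphingosine kinase, stood at 32.2 and 8.37 CPM in the HRG replicates, 23.9 and 20.8 CPM with EGF and 27.0 and 15.6 CPM with vehicle. ZNF143, a transcription factor, stood at 72.3 and 25.9 CPM with HRG, 68.9 and 62.5 CPM with EGF and 61.3 and 52.1 CPM with vehicle. In both genes replicate 2 was the lower one in all of these pairs. HRG replicate 2 was the library nearer to the EGF mean for 61.8% of the genes called lower with HRG, for 54.3% of those called higher and for 50.5% of all genes tested. The cause of the gap between the HRG replicates was not tested. Counts are therefore also given without each library. Replicates are known by number alone, so the spread between them may be technical. The p-values rest on a spread pooled over the 10 groups of the 20 BT474R libraries. Every other pair in that fit was closer than the HRG pair of 24 h, so the pooled spread may understate that of HRG.

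**Figure D1:**
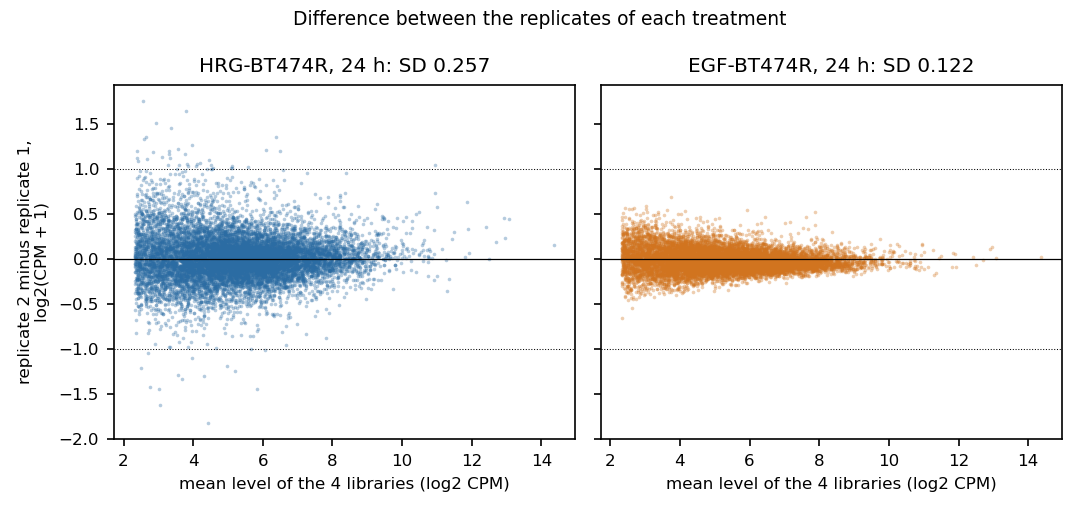
Difference between replicate 2 and replicate 1 for genes with at least 5 CPM (vertical axis, log2(CPM + 1)) against the mean level of the 4 libraries (horizontal axis, log2 CPM), for HRG-BT474R on the left and EGF-BT474R on the right; dotted lines mark a difference of 1. The HRG points spread more widely (SD 0.257) than the EGF points (SD 0.122).

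Of 24287 genes tested, 451 (1.86%) were higher and 807 (3.32%) lower in HRG-BT474R than in EGF-BT474R. The larger differences lay on the lower side: 219 genes were lower and 42 higher by a log2 fold change of 1 or more, and 78 lower and 8 higher by 2 or more. Members of the antiviral and of the GBP and APOL lists, both made of interferon-stimulated genes, were 10 of the 14 named genes furthest below EGF, whereas GATA3, a luminal factor, and SOX2, a factor of progenitor cells, stood among the 14 furthest above. The median log2 fold change was 0.36 for the genes called higher, -0.55 for those called lower and 0.02 over all genes tested. The HRG and EGF libraries did not overlap in 450 of the 451 and in all 807, while over all genes tested HRG lay above EGF without overlap in 20.9% and below it in 17.2%. In bulk RNA a lower level cannot be told apart from fewer cells expressing the gene.

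Both the number of calls and the genes called depended on single libraries. Leaving out any 1 of the 4 libraries lost part of the calls above. Without HRG replicate 1, 653 genes were higher and 1049 lower, and without HRG replicate 2 the numbers were 846 and 1184. Without EGF replicate 1 they were 253 and 539, and without EGF replicate 2 they were 169 and 483. With the 6 BT474R libraries of 24 h alone in the fit, 56 genes were higher and 341 lower, and with the 4 compared libraries alone edgeR called 0 genes, with 2122 genes at an unadjusted p below 0.05. A library left alone in its group was taken to vary like the other groups.

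**Figure D2:**
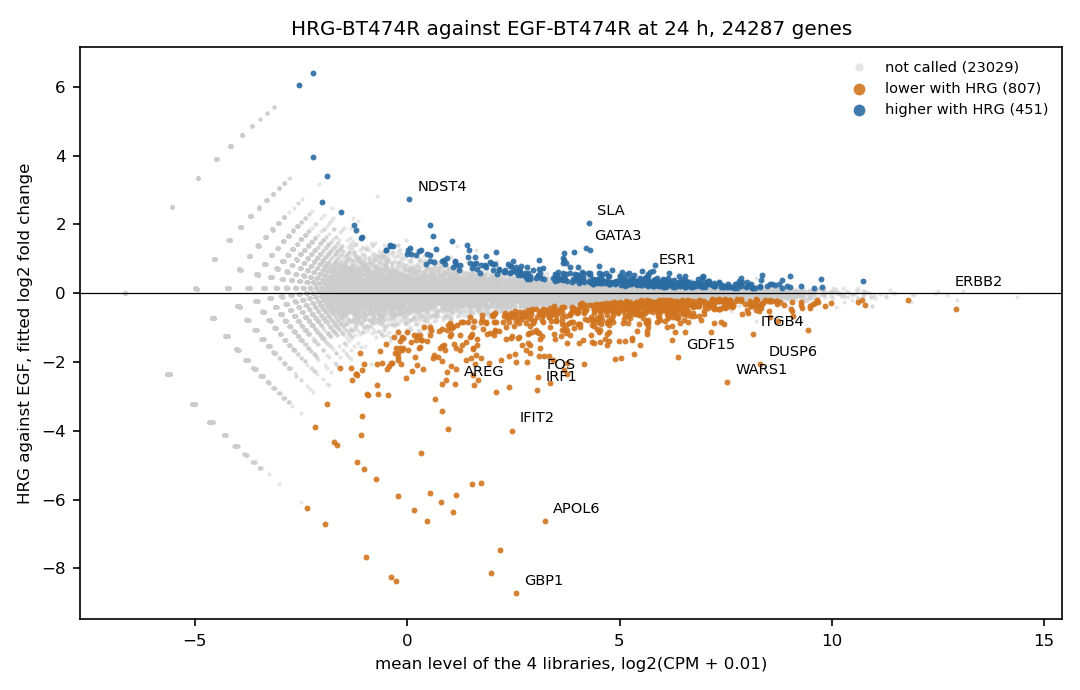
Fitted log2 fold change of HRG against EGF at 24 h in BT474R (vertical axis) against the mean level of the 4 libraries (horizontal axis, log2(CPM + 0.01)) for 24287 genes; blue points are the 451 genes called higher with HRG, orange points the 807 called lower, grey points the rest. To the right of 0 on the horizontal axis the orange points reach further from 0 than the blue points, and ERBB2, far to the right, lies near 0; fitted values of genes with almost no HRG counts are not bounds.

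Antiviral effectors were the gene list with the most members lower with HRG. Of 58 listed genes, 57 had an entry, 51 passed the filter of at least 1 count in 10 of the 20 BT474R libraries, 33 were lower with HRG and 0 higher, and their median log2 fold change was -1.22. Without HRG replicate 1, 35 were lower, and without HRG replicate 2, 31 were lower and 1 was higher. Several interferon-stimulated genes were close to absent with HRG. GBP1, an interferon-induced GTPase of the GBP and APOL list, had 0 and 1 counts in the HRG libraries and 302 and 271 in the EGF libraries, an EGF level 511-fold higher (95% counting interval 91.3 to 20207). IFIT3, which binds and restricts viral RNA together with its relatives, had 0 and 1 counts with HRG and 215 and 166 with EGF, 340-fold higher with EGF (60.6 to 13448). OAS2, a 2'-5'-oligoadenylate synthetase that activates RNase L, had 0 and 2 counts against 222 and 221, a ratio of 197 (54.3 to 1635). In these 3 genes the vehicle libraries were also near 0, at 0.0921 CPM or less. These intervals cover counting error only.

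The promoter windows of genes at this end of the comparison are shown because most hold the element that the interferon factors recognise. The windows come from RefSeq (GRCh38.p14) and run from 250 bases before to 50 after each annotated start; each stretch reads 5' to 3' on the gene's strand, with matches in capitals. The ISRE letters searched were GAAA, any 2 bases and GAAA again, and the GAS letters were TTC, any 3 bases and GAA, both on either strand.
GBP1, chr1:89065296-89065365, minus strand: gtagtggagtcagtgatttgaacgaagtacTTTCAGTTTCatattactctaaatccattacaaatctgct
IFIT3, chr10:89327811-89327914, plus strand: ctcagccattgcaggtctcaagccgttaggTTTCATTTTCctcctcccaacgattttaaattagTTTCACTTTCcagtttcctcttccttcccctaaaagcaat
IFITM3, chr11:320861-320942, minus strand: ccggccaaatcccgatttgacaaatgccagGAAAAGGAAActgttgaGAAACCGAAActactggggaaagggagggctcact
IFI44, chr1:78649741-78649788, plus strand: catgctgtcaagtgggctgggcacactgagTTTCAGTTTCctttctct
IFITM1, chr11:313970-314043, plus strand: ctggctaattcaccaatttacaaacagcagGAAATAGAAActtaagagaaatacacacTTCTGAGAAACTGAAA
BST2, chr19:17405650-17405796, minus strand: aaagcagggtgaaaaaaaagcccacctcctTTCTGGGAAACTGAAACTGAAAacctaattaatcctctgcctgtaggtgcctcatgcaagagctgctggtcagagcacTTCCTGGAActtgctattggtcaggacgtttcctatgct
IRF1, chr5:132490859-132490927, minus strand: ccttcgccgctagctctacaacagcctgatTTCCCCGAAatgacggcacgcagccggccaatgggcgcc
IRF9, chr14:24161172-24161240, plus strand: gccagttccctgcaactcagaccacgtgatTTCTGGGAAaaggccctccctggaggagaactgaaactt
IRF1 and IRF9 have a GAS match and no ISRE match, and in IFITM1 and BST2 a GAS match overlaps an ISRE match.

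Of the 14 named genes furthest below EGF, 7 had a window. The ISRE letters stood in 6 of these 7 genes and in 8 of their 9 windows, BATF2 being the exception. Windows of the same gene can overlap and share a match, as those of IFI44 do. Of the 14 furthest above, 10 had a window, and 0 of their 20 windows held the ISRE letters. The letters stood in 36 of 63 windows of antiviral effectors (57.1%). They stood in 49 of 868 windows of all genes called lower with HRG (5.65%) and in 14 of 576 windows of genes called higher (2.43%). For comparison, they stood in 633 of 21184 windows of the genes tested (2.99%) and in 1255 of 35116 windows of all genes (3.57%). GAS letters stood in 61 of 868 windows of genes called lower with HRG (7.03%) and in 38 of 576 of genes called higher (6.597%). They stood in 1380 of 21184 windows of the genes tested (6.51%) and in 7.66% of all windows. Among antiviral effectors they stood in 13 of 63 windows (20.6%). Of 11 STAT and IRF factors with a window, IRF1 and IRF9 were the 2 with GAS letters, in 2 of 18 windows. A match describes the letters and was not tested as a binding site.

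Other members of the antiviral list differed in the same direction at higher levels. IFIT2, a relative of IFIT3, stood at 0.868 and 0.414 CPM with HRG, 10.6 and 10.1 CPM with EGF and 0.371 and 0.368 CPM with vehicle, a log2 fold change of -4.00 ± 0.26 (SE, n = 2 per group, edgeR quasi-likelihood test, adjusted p = 9.5e-10). OAS3 stood at 3.65 and 5.34 CPM with HRG and at 21.6 and 20.9 CPM with EGF (-2.24 ± 0.15, edgeR adjusted p = 1.1e-09). IFI6, a mitochondrial protein of the interferon response, stood at 14.1 and 13.8 CPM with HRG, 52.6 and 49.7 CPM with EGF and 13.7 and 15.5 CPM with vehicle (-1.87 ± 0.10, edgeR adjusted p = 5.6e-11). PARP14, an ADP-ribosyltransferase, stood at 15.8 and 8.88 CPM with HRG and 48.7 and 45.3 CPM with EGF. The ligand groups did not overlap in any of these genes, which for IFIT2 was a condition of being named. In IFIT2 and IFI6 HRG lay nearer to vehicle than to EGF. The list was not uniform. MX1, a dynamin-like GTPase, was not called at 3.01 and 1.38 CPM with HRG and 2.64 and 2.39 CPM with EGF, and ISG15, a ubiquitin-like modifier, missed the threshold at 0.685 and 0.782 against 1.92 and 1.33 CPM (-1.14 ± 0.34, edgeR adjusted p = 0.055).

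The GBP and APOL genes behaved like the antiviral list: 6 of 7 tested were lower, with a median of -1.99. APOL6, an apolipoprotein L, had 3 and 5 counts with HRG and 494 and 417 with EGF, a ratio of 101.5 (95% counting interval 51.3 to 236). GBP3 stood at 3.43 and 2.21 CPM with HRG and 12.5 and 9.96 CPM with EGF (-1.99 ± 0.19, edgeR adjusted p = 3.8e-07). Other genes far below EGF were likewise near 0 with HRG. IFITM3 and IFITM1, membrane proteins that block viral entry, had 1 and 6 HRG counts in all against 133 and 319 with EGF. BST2, which tethers budding virions, had 0 and 5 counts against 141 and 132, and SERPING1, the C1 inhibitor of complement, had 0 and 3 against 113 and 98. BATF2, an AP-1 family factor, had 2 counts in all with HRG against 204 with EGF (ratio 90.9, interval 24.8 to 756), LGALS17A, a galectin-related transcript, 2 against 166 (74.0, 20.2 to 616) and TGM2, a transglutaminase, 4 against 118 (26.3, 10.002 to 98.1). The fitted log2 values of BST2, SERPING1 and APOL1 depend on single counts: BST2 moved from -5.55 to -10.16, SERPING1 from -5.88 to -9.79 and APOL1 from -5.80 to -9.18 without HRG replicate 2, and all 3 were still called. Their count ratios were 48.7 (20.6 to 151), 62.7 (21.2 to 306) and 61.9 (16.8 to 517).

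Some interferon-stimulated genes were detected in BT474R almost only with EGF. They did not pass the filter over the BT474R libraries and so were not tested in that fit. GBP4 had 0 and 0 counts with HRG and 140 and 109 with EGF, at least 74.0-fold higher with EGF against a floor of 3 counts over the HRG group. GBP5 had 0 and 0 against 153 and 124 (at least 82.3-fold), IFI44L 0 and 0 against 141 and 91 (at least 68.9-fold) and XAF1, an antagonist of apoptosis inhibitors, 0 and 0 against 52 and 55 (at least 31.8-fold). The interferon-induced T-cell chemokine CXCL9 had 1 and 0 against 100 and 86 (166-fold, interval 29.4 to 6583), CXCL10 0 and 0 against 16 and 7 (at least 6.83-fold) and CXCL11 0 and 0 against 19 and 20 (at least 11.6-fold). Of the 22 interferon genes themselves, 0 passed the filter and 17 had no count in the 4 libraries. Their summed level was 0.0914 and 0.0460 CPM with HRG and 0.0853 and 0.0392 CPM with EGF.

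Among the regulators, IRF1 differed most. IRF1 stood at 1.87 and 2.25 CPM with HRG, 15.2 and 13.8 CPM with EGF and 1.48 and 2.35 CPM with vehicle, a log2 fold change of -2.81 ± 0.24 (edgeR quasi-likelihood test, adjusted p = 6.9e-08). The EGF libraries had already reached 14.8 and 11.0 CPM of IRF1 at 1 h, when HRG stood at 2.63 and 2.83 CPM. IRF9, a DNA-binding partner of STAT factors, stood at 4.39 and 4.32 CPM against 12.5 and 13.6 CPM (-1.58 ± 0.12, edgeR adjusted p = 8.1e-09). This value is uncertain, since 70.1% of the IRF9 counts lie in a second entry of the same name. STAT2 was lower by less, at 45.4 and 43.2 CPM against 57.3 and 60.7 CPM (-0.41 ± 0.09, edgeR adjusted p = 0.0040), and was not called without EGF replicate 2 (-0.37). Of 16 STAT and IRF factors, 5 were lower (3 without EGF replicate 2), 1 was higher, 10 were not called and the median was -0.13. The higher one was IRF8, at 1.87 and 1.66 CPM against 0.725 and 0.745 CPM (1.26 ± 0.32, edgeR adjusted p = 0.022), a call lost without HRG replicate 1 (1.15), EGF replicate 1 (1.24) or EGF replicate 2 (1.28). Of 9 interferon receptors and JAK kinases, IFNGR1 was the 1 called, at -0.33 ± 0.08, and it was not called without HRG replicate 2 (-0.25), EGF replicate 1 (-0.30) or EGF replicate 2 (-0.37).

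**Figure D3:**
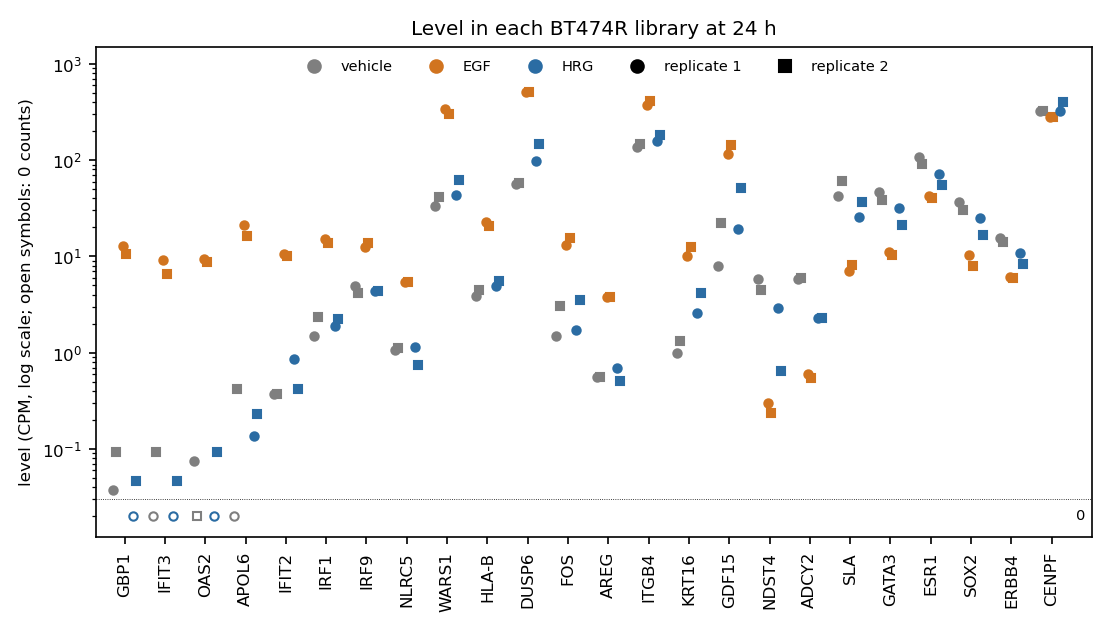
Level of 24 named genes in each BT474R library at 24 h (vertical axis, CPM on a log scale; grey vehicle, orange EGF, blue HRG; circles replicate 1, squares replicate 2; open symbols 0 counts). In the interferon-stimulated genes on the left and in IRF1, the HRG points lie at the level of the vehicle points and well below EGF (IRF1 1.87 and 2.25 against 15.2 and 13.8 CPM), whereas GATA3 and ESR1 lie with HRG between EGF and vehicle.

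Genes of antigen presentation on MHC class I were also lower with HRG, 8 of 22 tested members of the list, with 1 higher and a median of -0.27. NLRC5, the transactivator of class I genes, stood at 1.14 and 0.736 CPM with HRG and 5.37 and 5.41 CPM with EGF (-2.51 ± 0.23, edgeR adjusted p = 1.9e-07). ERAP2, which trims peptides for class I, stood at 1.60 and 1.33 CPM against 4.69 and 4.12 CPM (-1.58 ± 0.27, edgeR adjusted p = 0.00052). Both were named on condition that the ligand groups did not overlap. Vehicle stood at 1.08 and 1.11 CPM for NLRC5 and 2.00 and 1.80 CPM for ERAP2. HLA-B stood at 4.98 and 5.61 CPM against 22.9 and 20.6 CPM (-2.03), B2M, the class I light chain, at 17.0 and 16.7 CPM against 39.3 and 34.4 CPM (-1.13), and TAP1, the peptide transporter, at 1.96 and 1.89 CPM against 6.99 and 7.73 CPM (-1.93). These last values are uncertain, since 34.5%, 45.1% and 78.8% of the counts of these genes lie in repeat entries of their names. CALR, a chaperone of class I loading, was the 1 higher, at 655 and 673 CPM against 584 and 568 CPM (0.20 ± 0.04, edgeR adjusted p = 0.0051), and was not called without EGF replicate 2 (0.18).

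Chemokine, NF-kB and death receptor genes were lower in part. Of 10 tested chemokines and receptors 5 were lower, of 20 NF-kB subunits and targets 4, and of 16 cell death ligands and receptors 7, and 0 were higher in these lists, whose medians were -0.53, -0.06 and -0.45. CXCR4, the CXCL12 receptor, stood at 68.2 and 57.4 CPM with HRG and 104 and 103 CPM with EGF (-0.72 ± 0.07, edgeR adjusted p = 5.8e-07). CX3CL1, a membrane-bound chemokine, stood at 46.4 and 55.6 CPM against 72.8 and 74.5 CPM (-0.53 ± 0.08, edgeR adjusted p = 0.00010). CXCL8, a neutrophil chemokine, had 0 and 1 counts against 18 and 29 (ratio 41.9, 95% counting interval 7.16 to 1689), and the scavenging receptor ACKR3 was at -0.53 ± 0.08. CCL22, also lower (-1.98 ± 0.38), moved to -1.31 and -3.34 without HRG replicate 1 and 2. ICAM1, an adhesion molecule for leukocytes, stood at 1.19 and 0.828 CPM against 7.93 and 6.94 CPM (-2.88 ± 0.24, edgeR adjusted p = 3.4e-08). The NF-kB subunits themselves were not called, so ICAM1, TNFAIP3 (-1.54), BCL3 (-0.57) and NFKBIZ (-0.50) made up the count in that list. It was 1 without EGF replicate 2, where TNFAIP3 (-1.16), BCL3 (-0.49) and NFKBIZ (-0.38) were not called, and NFKBIZ was also lost without HRG replicate 1 (-0.41). BCL3 stood at -0.33 and -0.88 without HRG replicate 1 and 2. CASP10, an initiator caspase, stood at 0.411 and 0.460 CPM against 2.17 and 1.61 CPM (-2.10 ± 0.39, edgeR adjusted p = 0.0014). The TRAIL receptors TNFRSF10A (-0.64 ± 0.11) and TNFRSF10B (-0.47 ± 0.07) were also lower. The death list held 8 and 5 called genes without HRG replicate 1 and 2, and 4 without EGF replicate 1.

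Feedback inhibitors of receptor and MAP kinase signaling were lower with HRG in 7 of 24 genes, among them the genes best known as outputs of ERK. DUSP6, an ERK phosphatase, stood at 97.8 and 147 CPM with HRG, 511 and 506 CPM with EGF and 57.0 and 58.3 CPM with vehicle (-2.05 ± 0.10, edgeR adjusted p = 4.7e-11). SPRY4, a Sprouty inhibitor of receptor signaling, stood at 34.7 and 50.3 CPM against 108 and 110.2 CPM (-1.36 ± 0.10, edgeR adjusted p = 6.4e-09). ERRFI1, which binds and inhibits EGFR, stood at 21.9 and 24.4 CPM against 60.8 and 70.4 CPM (-1.504 ± 0.09, edgeR adjusted p = 3.0e-10). In all 3 the HRG libraries lay above both vehicle libraries, and below both EGF libraries as the rule for naming required. The list median was -0.08, 16 of the 24 genes were not called, and 7 and 8 were lower without HRG replicate 1 and 2. LRIG2 was the 1 higher (0.26 ± 0.07), and it was not called without HRG replicate 1 (0.15), EGF replicate 1 (0.27) or EGF replicate 2 (0.26).

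Immediate early and AP-1 genes showed the same direction, with 8 of 23 lower, 0 higher and a median of -0.53. FOS stood at 1.74 and 3.54 CPM with HRG and 13.05 and 15.5 CPM with EGF (-2.44 ± 0.28, edgeR adjusted p = 4.3e-06). EGR1 stood at 2.70 and 1.93 CPM against 7.76 and 8.79 CPM (-1.84 ± 0.25, edgeR adjusted p = 3.5e-05), and its vehicle level of 5.78 and 4.38 CPM lay above HRG. KLF2, a Krüppel-like factor, stood at 11.1 and 16.01 CPM against 39.1 and 38.6 CPM (-1.52 ± 0.11, edgeR adjusted p = 2.5e-09). MYC stood at 1.60 and 3.04 CPM against 2.86 and 3.65 CPM, a difference that was not called (-0.49 ± 0.23, edgeR adjusted p = 0.31) and that depended on the HRG library, at -0.12 without replicate 1 and -1.03 without replicate 2, where it was called lower (edgeR adjusted p = 0.015). Without HRG replicate 1 and 2 the list had 9 and 12 genes lower.

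Of 9 tested ERBB ligands, 3 were lower with HRG and 0 higher, with a median of -0.19. The EGFR ligand AREG stood at 0.685 and 0.506 CPM with HRG, 3.75 and 3.80 CPM with EGF and 0.556 and 0.553 CPM with vehicle (-2.65 ± 0.31, edgeR adjusted p = 6.5e-06). HBEGF, a heparin-binding EGFR ligand, had 3 and 2 counts against 12 and 33, a ratio of 8.02 (95% counting interval 3.19 to 25.9). The count of ligands called was 2 without EGF replicate 1 and 1 without EGF replicate 2. Of the 4 receptors, ERBB4 was the 1 called. It stood at 10.7 and 8.37 CPM with HRG, 6.05 and 5.92 CPM with EGF and 15.5 and 14 CPM with vehicle (0.67 ± 0.12, edgeR adjusted p = 0.0011). EGFR stood at 1082 and 1171 CPM with HRG and 1058 and 1125 CPM with EGF (0.05 ± 0.09), ERBB2 at 6117 and 6999 CPM against 6781 and 6718 CPM (-0.04 ± 0.05), and ERBB3 at 285 and 331 CPM against 297 and 289 CPM (0.07 ± 0.06). The groups overlapped in these 3 receptors, whose small differences change direction when 1 HRG library is left out (EGFR -0.01 and ERBB3 -0.04 without replicate 2, ERBB2 0.03 without replicate 1). Without HRG replicate 2, ERBB2 was called lower (-0.14 ± 0.04, edgeR adjusted p = 0.025).

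Luminal regulators were higher with HRG in 6 of 25 tested genes, with 0 lower and a median of 0.13. GATA3 stood at 31.8 and 21.1 CPM with HRG, 11.0 and 10.2 CPM with EGF and 46.7 and 38.1 CPM with vehicle (1.32 ± 0.16, edgeR adjusted p = 6.4e-06). ESR1, the estrogen receptor, stood at 72.0 and 55.1 CPM, 42.4 and 40.3 CPM and 107 and 92.2 CPM in the same order (0.62 ± 0.10, edgeR adjusted p = 0.00041), and at 0.40 without HRG replicate 1. In GATA3 and ESR1 both ligand groups lay below vehicle, EGF further than HRG. FOXA1, a pioneer factor of luminal cells, stood at 469 and 476 CPM with HRG and 399 and 381 CPM with EGF (0.28 ± 0.05, edgeR adjusted p = 0.00054). ELF5, a regulator of alveolar progenitors, stood at 21.4 and 24.7 CPM against 15.99 and 14.5 CPM (0.60 ± 0.10, edgeR adjusted p = 0.00037). GREB1, an estrogen target, was also higher (0.25 ± 0.06). Without HRG replicate 1 and 2, 7 and 8 members were higher, and without replicate 2 another 3 were lower.

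The genes furthest above EGF had low to moderate levels. SLA, an adaptor that dampens receptor signaling in lymphocytes, stood at 25.4 and 37.0 CPM with HRG, 7.12 and 8.04 CPM with EGF and 42.1 and 60.7 CPM with vehicle (2.04 ± 0.24, edgeR adjusted p = 5.6e-06). ADCY2, an adenylyl cyclase, stood at 2.28 and 2.30 CPM against 0.597 and 0.549 CPM (1.99 ± 0.24, edgeR adjusted p = 7.0e-06). SOX2 stood at 25.4 and 16.8 CPM against 10.3 and 8.002 CPM (1.21 ± 0.17, edgeR adjusted p = 5.5e-05). No library decided the call of these 3 genes, which were named on condition that the groups did not overlap. The largest value, that of the heparan sulfate sulfotransferase NDST4, rested on single libraries: it stood at 2.92 and 0.644 CPM against 0.298 and 0.235 CPM (2.73 ± 0.55, edgeR adjusted p = 0.0031) and was not called without HRG replicate 1 (1.24) or without EGF replicate 2 (2.56). PLAAT2, a phospholipid acyltransferase, was likewise lost without HRG replicate 1 (0.72), EGF replicate 1 (1.95) or EGF replicate 2 (1.42), from 1.67 ± 0.43. COLEC12, a scavenger receptor, stood at 3.38 and 4.37 CPM against 1.28 and 1.96 CPM, and the flippase gene ATP8B2 at 20.2 and 15.3 CPM against 8.36 and 7.57 CPM. AKR1B1, an aldose reductase, and MYRIP, a RAB27 and myosin linker, had log2 fold changes of 1.28 and 1.21 and kept their calls whichever of the 4 libraries was left out. FNDC11 (1.22) lost its call without HRG replicate 1 (1.06), EGF replicate 1 (1.24) or EGF replicate 2 (1.20). PLCD4, a phospholipase C (1.13), lost it without HRG replicate 2 (0.76), EGF replicate 1 (1.33) or EGF replicate 2 (0.94), and PLPPR4 (1.14) in each of the 4 cases.

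Adhesion genes were lower with HRG in 9 of 32 tested members, 0 were higher, and the median was -0.33. ITGB4, the beta subunit of the hemidesmosome integrin, stood at 160.0 and 181 CPM with HRG, 371 and 413 CPM with EGF and 137 and 149 CPM with vehicle (-1.20 ± 0.06, edgeR adjusted p = 4.7e-11). ITGB6, of the integrin that activates TGF-beta, stood at 45.6 and 53.4 CPM against 109 and 109.8 CPM (-1.14 ± 0.09, edgeR adjusted p = 3.2e-08). Both were named on condition that the groups did not overlap. The collagenase MMP1 had 0 and 0 counts with HRG and 9 and 16 with EGF, at least 7.43-fold higher with EGF. CDH1 (0.06) and VIM (-0.33), the usual markers of epithelial and mesenchymal states, were not called. Without HRG replicate 1 and 2, 8 and 13 members were lower.

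Keratins and S100 genes were lower in 5 of 15 and 6 of 19 tested members, with medians of -0.28 and -0.27 and 0 higher. KRT16, a keratin of activated epidermis, stood at 2.56 and 4.19 CPM against 10.1 and 12.6 CPM (-1.75 ± 0.19, edgeR adjusted p = 1.7e-06). KRT15, a basal keratin, stood at 97.1 and 141 CPM against 204 and 223 CPM (-0.84 ± 0.11, edgeR adjusted p = 3.8e-05). The luminal KRT18 was at 421 and 645 CPM against 696 and 745 CPM (-0.43 ± 0.12), a call lost without HRG replicate 1 (-0.18), EGF replicate 1 (-0.48) or EGF replicate 2 (-0.39) and at -0.78 without HRG replicate 2. S100A9, a subunit of calprotectin, stood at 9.14 and 8.10 CPM against 20.6 and 19.3 CPM (-1.21 ± 0.12, edgeR adjusted p = 3.3e-07) with vehicle at 2.22 and 2.76 CPM, so that HRG lay between vehicle and EGF. The keratin count fell to 3 without EGF replicate 2.

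Of 23 tested genes of the integrated stress response, 7 were lower and 0 higher, with a median of -0.19. GDF15, a secreted stress cytokine, stood at 19.5 and 51.5 CPM with HRG, 116 and 143 CPM with EGF and 8.01 and 22.01 CPM with vehicle (-1.87 ± 0.30, edgeR adjusted p = 0.00034), and HRG replicates differed in it by more than the EGF replicates did. CHAC1, which degrades glutathione, was at -0.86 ± 0.14. The count in this list was 11 without HRG replicate 2 and 2 without EGF replicate 2. Of 28 genes in the list of HIF targets 4 were lower, with a list median of -0.19. EPAS1 (-0.40 ± 0.07), itself a HIF subunit rather than a target, was kept whichever library was left out. The others each lost their call in some such fit. The angiogenic factor VEGFA (-0.35 ± 0.10) was lost without HRG replicate 1 (-0.23), EGF replicate 1 (-0.42) or EGF replicate 2 (-0.28). The vasodilator ADM (-0.81 ± 0.24) was lost without HRG replicate 1 (-0.51), EGF replicate 1 (-0.90) or EGF replicate 2 (-0.72), and was at -1.23 without HRG replicate 2. STC2 (-0.46 ± 0.10) was lost without EGF replicate 2 (-0.37). HIF1A (-0.06 ± 0.05) and CA9 were not called. CA9, a carbonic anhydrase, stood at 32.2 and 57.5 CPM against 59.2 and 67.5 CPM (-0.50 ± 0.27, edgeR adjusted p = 0.39), and at -0.16 and -0.98 without HRG replicate 1 and 2. It was called lower without HRG replicate 2 (edgeR adjusted p = 0.021) and with no filter on low counts (-0.52). The HIF count was 2 without HRG replicate 1, 8 without HRG replicate 2, 2 without EGF replicate 1 and 1 without EGF replicate 2.

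Of 32 sterol synthesis genes 1 was lower and 0 higher, and of 26 genes of fatty acid synthesis and storage 1 was lower and 1 higher, with medians of -0.17 and -0.06. FDPS, which makes farnesyl pyrophosphate, was at -0.38 ± 0.11 and lost its call without HRG replicate 2 (-0.37), EGF replicate 1 (-0.38) or EGF replicate 2 (-0.37). ACACB, an acetyl-CoA carboxylase, stood at 15.1 and 13.3 CPM with HRG and 9.04 and 9.37 CPM with EGF (0.62 ± 0.10, edgeR adjusted p = 0.00040). ME1, the cytosolic malic enzyme, was the 1 lower in the fatty acid list (-0.33 ± 0.09) and lost its call without HRG replicate 1 (-0.26), EGF replicate 1 (-0.30) or EGF replicate 2 (-0.35). SREBF1 (0.01 ± 0.05), SREBF2 (0.02 ± 0.05) and FASN (-0.19 ± 0.10) were not called, although the directions of SREBF1 and SREBF2 change with single libraries and FASN was called lower with no filter on low counts (-0.21). In the sterol list, 8 genes were lower without HRG replicate 2 and 17 with no filter. In the fatty acid list, 5 were lower and 2 higher without HRG replicate 2, and 5 lower and 1 higher with no filter. The insulin receptor substrates IRS1 and IRS2 were lower, IRS2 at 8.27 and 10.4 CPM against 17.1 and 17.9 CPM (-0.91 ± 0.11, edgeR adjusted p = 1.0e-05) and IRS1 at 14.3 and 17.8 CPM against 25.4 and 29.3 CPM (-0.77 ± 0.10, edgeR adjusted p = 1.4e-05).

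Mitotic genes were higher with HRG in 14 of 32, with 0 lower and a median of 0.19, whereas of 33 DNA replication genes 0 were called in either direction in edgeR's test, with a median of -0.02. Without HRG replicate 2, 1 replication gene was higher and 2 were lower. The differences were small. CENPF, a kinetochore protein, stood at 327 and 404 CPM with HRG and 278 and 284 CPM with EGF (0.38 ± 0.07, edgeR adjusted p = 0.0011), and at 0.22 without HRG replicate 2. CDC20, an activator of the anaphase-promoting complex, stood at 66.4 and 66.0 CPM against 53.7 and 52.2 CPM (0.32 ± 0.06, edgeR adjusted p = 0.0019). KIF20A, a kinesin of cytokinesis, stood at 53.7 and 53.7 CPM against 42.5 and 40.2 CPM (0.38 ± 0.07, edgeR adjusted p = 0.0021), and was not called without EGF replicate 2 (0.34). The mitotic count was 13 without either HRG library, 7 without EGF replicate 1, 4 without EGF replicate 2 and 0 in the fit of the 6 libraries of 24 h. CCND1, the G1 cyclin, was lower at 219 and 326 CPM against 349 and 389 CPM (-0.44 ± 0.12, edgeR adjusted p = 0.032), a call lost without HRG replicate 1 (-0.20), EGF replicate 1 (-0.51) or EGF replicate 2 (-0.36), and at -0.76 without HRG replicate 2.

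Other lists held few DEGs. Of 19 tested glycolytic enzymes ENO2, a neuronal enolase, was the 1 called (-0.73 ± 0.13). Without HRG replicate 2, 3 glycolytic genes were lower and 1 higher, and with no filter 6 were lower. Of 21 G1 cyclins and CDK inhibitors the inhibitor CDKN2B was lower (-1.79 ± 0.27), CCND1 lower and RBL2, a pocket protein, higher (0.19 ± 0.05, lost without HRG replicate 2 at 0.13, EGF replicate 1 at 0.23 or EGF replicate 2 at 0.16). Of 20 BCL2 family genes the proapoptotic PMAIP1 was lower (-0.79 ± 0.12), while BMF (0.39 ± 0.07, lost without EGF replicate 2 at 0.28) and BCL2L11 (0.19 ± 0.05, lost without HRG replicate 1 at 0.16, EGF replicate 1 at 0.21 or EGF replicate 2 at 0.17), both also proapoptotic, were higher. ENO2, CDKN2B and PMAIP1 kept their calls whichever library was left out. Beside IRS1 and IRS2, the 25 genes of insulin and FOXO feedback held BCL6, a repressor (-0.37 ± 0.10, lost without HRG replicate 1 at -0.20, EGF replicate 1 at -0.41 or EGF replicate 2 at -0.31, and at -0.57 without HRG replicate 2), the stress gene GADD45A (0.56 ± 0.11, lost without EGF replicate 2 at 0.48) and FOXO4 (0.34 ± 0.10, lost without HRG replicate 1 at 0.24, EGF replicate 1 at 0.40 or EGF replicate 2 at 0.28). Of 13 genes of cytokine feedback SOCS2, a STAT5 target, was the 1 called (0.82 ± 0.20, lost without EGF replicate 1 at 0.71 or EGF replicate 2 at 0.94). Of 12 mucins and aquaporins AQP3, a glycerol channel, was lower (-0.91 ± 0.18, at -0.53 and -1.47 without HRG replicate 1 and 2 and lost without EGF replicate 2 at -0.83), as was MUC2 (-1.06 ± 0.23, lost without EGF replicate 2 at -0.70), which is uncertain since 70.4% of its counts lie in repeat entries.

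**Figure D4:**
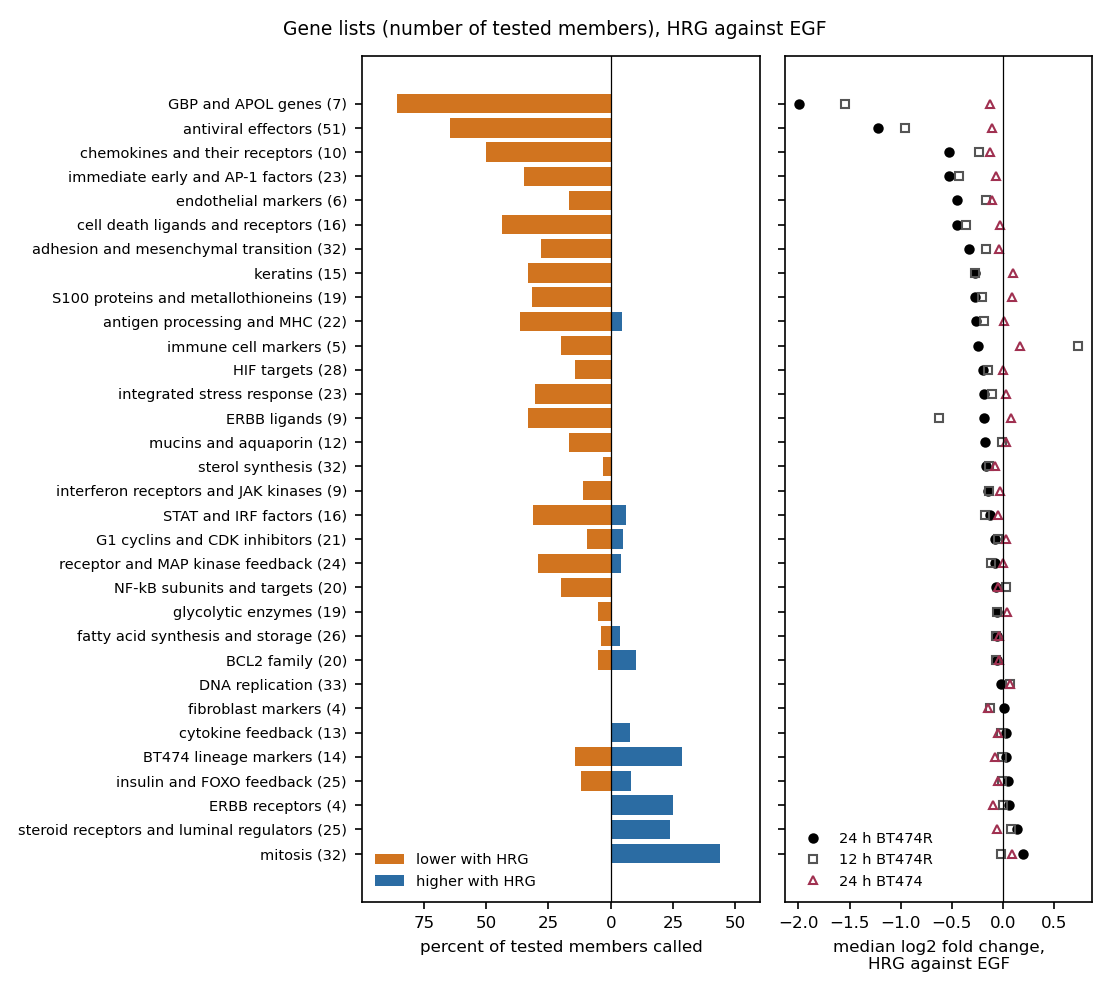
Gene lists with the number of tested members in brackets: on the left the percent of tested members called higher (blue, to the right of 0) or lower (orange, to the left) with HRG at 24 h in BT474R, on the right the median log2 fold change of HRG against EGF at 24 h (filled circles) and 12 h (squares) in BT474R and at 24 h in BT474 (triangles). Antiviral effectors and GBP and APOL genes have the lowest medians in BT474R (-1.22 and -1.99), and the mitosis list is the one with the most members called higher (14 of 32).

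The ligand difference of 24 h was then compared with that of 12 h as an interaction. It differed in 34 of 24287 genes, 3 higher (0.0124%) and 31 lower (0.128%) at 24 h, and the lower group included feedback and interferon-stimulated genes whose gap to EGF widened. WARS1, a tryptophanyl-tRNA synthetase induced by interferon gamma, stood at 71.9 and 72.5 CPM with HRG and 133 and 120 CPM with EGF at 12 h, and at 43.1 and 62.9 CPM and 338 and 299 CPM at 24 h (24 h minus 12 h -1.78 ± 0.16, edgeR adjusted p = 9.8e-06). DUSP6 stood at 279 and 300.1 CPM with HRG and 509 and 491 CPM with EGF at 12 h, against 97.8 and 147 CPM and 511 and 506 CPM at 24 h (-1.27 ± 0.14, edgeR adjusted p = 0.00011). SPRY4 (-0.93 ± 0.14), ERRFI1 (-0.91 ± 0.12) and KLF2 (-0.75 ± 0.14) were called in the same direction. For HLA-B the HRG libraries stood at 5.54 and 5.53 CPM at 12 h and EGF at 10.1 and 7.44 CPM, and the difference at 24 h was larger by -1.36 ± 0.23 (edgeR adjusted p = 0.0072). GPRC5A, an orphan receptor induced by retinoic acid, differed by -1.29 ± 0.21 and ITGB4 by -0.56 ± 0.09.

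The genes higher at 24 h than at 12 h were ELF5, LMO3 and CCNB1. CCNB1, the mitotic cyclin, stood at 57.8 and 61.4 CPM with HRG and 65.5 and 71.0 CPM with EGF at 12 h, and at 88.5 and 97.3 CPM and 74.6 and 75.9 CPM at 24 h, a change of order (0.50 ± 0.08, edgeR adjusted p = 0.0053). LMO3, a LIM-domain protein, differed by 0.58 ± 0.09 and ELF5 by 0.69 ± 0.14. For IRF1 the interaction did not pass the test (0.26 ± 0.36, edgeR adjusted p = 0.95), and its difference at 12 h was -3.07. The list of antiviral effectors had a median of -0.96 at 12 h and -1.22 at 24 h, and 0 of its tested members passed the interaction. The number of calls rested on the HRG libraries of 24 h: it was 227 without replicate 1 and 169 without replicate 2. It was 22 without EGF replicate 2 of 24 h and 18 without EGF replicate 2 of 12 h.

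**Figure D5:**
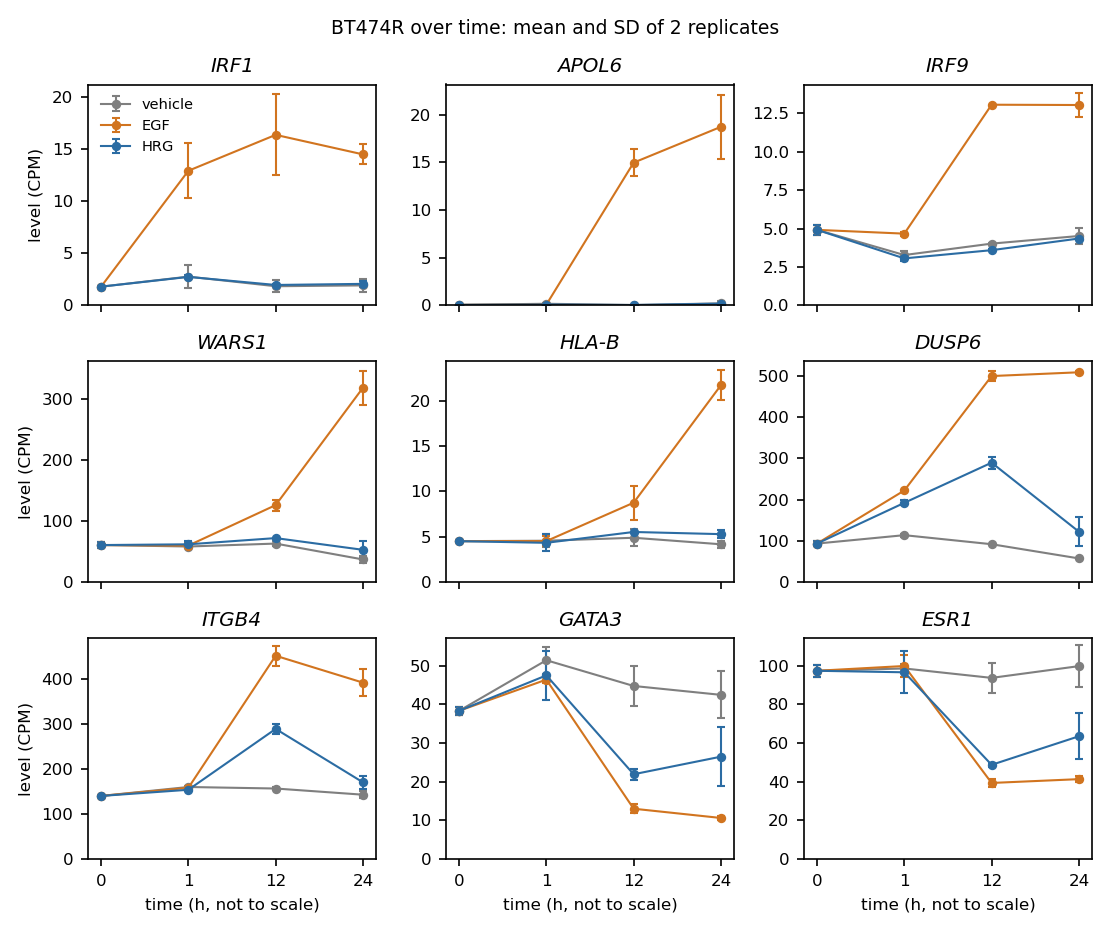
Level over time in BT474R of 9 genes (vertical axis, CPM from 0; horizontal axis, 0, 1, 12 and 24 h, not to scale), as the mean of 2 replicates with SD bars, for vehicle (grey), EGF (orange) and HRG (blue); time 0 is shared. IRF1 is already at 14.8 and 11.0 CPM at 1 h of EGF, WARS1 with EGF stands at 133 and 120 CPM at 12 h and 338 and 299 CPM at 24 h, and DUSP6 with HRG at 279 and 300.1 CPM and then 97.8 and 147 CPM.

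The same ligand difference in the parental line BT474 at 24 h was compared in a fit of all 40 libraries with 24641 genes. It differed between the lines in 1187 genes, of which 428 (1.74%) were higher and 759 (3.08%) lower in BT474R. This interaction tests whether the signed ligand differences of the lines are unequal, and not which is larger in size. By their values, the genes named next differed between the ligands by less in BT474 than in BT474R. IRF1 stood in BT474 at 3.84 and 4.47 CPM with HRG and 4.03 and 4.71 CPM with EGF, and the difference between the lines was -2.75 ± 0.30 (edgeR adjusted p = 4.3e-08). WARS1 stood in BT474 at 59.9 and 68.8 CPM against 56.0 and 63.8 CPM (-2.70 ± 0.14, edgeR adjusted p = 1.1e-15). DUSP6 stood at 127 and 135 CPM against 128 and 134 CPM (-2.07 ± 0.12, edgeR adjusted p = 2.2e-14). The ligand groups overlapped in BT474 for IRF1, WARS1 and DUSP6. Of 53 antiviral effectors tested in both lines, 29 were lower in BT474R by this interaction and 0 higher, and the list's median within BT474 was -0.11.

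For AREG, HRG lay above EGF in BT474, at 19.3 and 17.3 CPM with HRG and 13.4 and 13.3 CPM with EGF (difference between the lines -3.12 ± 0.31, edgeR adjusted p = 4.3e-09). For GATA3 the order of the ligands in BT474 was likewise opposite to that in BT474R, although the difference within BT474 was not tested on its own. GATA3 stood there at 307 and 328 CPM with HRG and 373 and 357 CPM with EGF (1.504 ± 0.16, edgeR adjusted p = 1.3e-08). ESR1 differed between the lines by 0.77 ± 0.12 and ERBB4 by 0.76 ± 0.15, while EGFR did not (0.04 ± 0.13, edgeR adjusted p = 0.95). SLA was not called in this interaction. Without HRG replicate 1 of BT474, 733 genes differed between the lines, and without EGF replicate 1 of BT474, 755.

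Markers of other cell types were few. The epithelial markers EPCAM, KRT8 and KRT19 stood between 337 and 2082 CPM in all 4 libraries. Of the 14 BT474 lineage markers tested, 4 were called higher with HRG and 2 lower, and the list median was 0.03. The 2 lower, KRT18 (-0.43) and GRB7 (-0.32), stood at -0.18 and -0.17 without HRG replicate 1. Of 10 fibroblast markers, 4 were tested and 0 called in edgeR's test, 5 had no count in the 4 libraries, including DCN, LUM, PDGFRB, FAP and POSTN, and their summed level of 236 to 285 CPM came almost entirely from COL1A1, which was not called (-0.14 ± 0.06). Of 14 immune markers 7 had no count in the 4 libraries in their first entry and the sum was 3.65 and 3.91 CPM with HRG and 5.24 and 5.77 CPM with EGF, with CD68, a lysosomal protein, as the 1 called (-0.83 ± 0.21, lost without HRG replicate 2 at -0.79, EGF replicate 1 at -0.91 or EGF replicate 2 at -0.75). Of the defining leukocyte markers, CD3D had no count in the 4 libraries, and PTPRC had none in its first entry and 1 in a repeat entry of its name. Others had a few counts. CD8A had 3 and 15 with HRG against 3 and 4 with EGF, 2.89-fold higher with HRG (95% counting interval 1.15 to 8.17). CSF1R had 6 counts in all with HRG against 8 with EGF, and NKG7 4 against 7. Endothelial markers summed to 12.4 and 18.1 CPM with HRG and 18.2 and 19.5 CPM with EGF, and KDR, with 6 and 1 counts against 16 and 22, was the 1 called. No endothelial marker was called without EGF replicate 1 or 2, with DESeq2, with the libraries thinned to the smallest or in the fit of the 6 libraries of 24 h. Their part in the interferon-stimulated differences was not tested.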

How the data were processed

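RNA was sequenced from BT474 and BT474R in 40 libraries, 2 from each of 20 groups. The deposited values are raw counts per gene. For these, the authors extracted total RNA (RNeasy), prepared Kapa mRNA HyperPrep libraries, trimmed the reads with Trim Galore 0.6.6, aligned them to GRCh38.p13 and counted them with featureCounts. Neither the annotation release, nor strandedness in counting, nor the handling of multi-mapping reads is given in the sources used here. The table holds 44584 names, of which 5078 repeat another name with a number. Such entries took 2.96% of all counts. Each was tested as a gene of its own, and none is named.

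The counts were analysed with R 4.3.3 and edgeR 4.0.16 (limma 3.58.1). The 20 BT474R libraries, with between 16794594 and 33387936 counts, were fitted together with 1 coefficient for each of 10 groups, after TMM scaling, on genes with 1 count or more in 10 libraries or more. HRG was tested against EGF at 24 h with the quasi-likelihood F test and Benjamini-Hochberg adjustment over all genes tested (threshold 0.05). The same fit gave the interaction of 24 h with 12 h, and a fit of all 40 libraries that of BT474R with BT474, whose BT474 levels are CPM scaled over 40 libraries. CPM used TMM-scaled library sizes. Where a group held 10 counts or fewer, the count ratio with an exact 95% interval is given, or a bound from 3 counts over the group where it held 0.

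Named genes were the 14 per direction with the largest fold change among called genes with a mean of at least 1 CPM and no overlap between groups, up to 4 per direction in each of 34 lists by the same criteria, a set of genes named by the study, and up to 4 per direction in each interaction. Other genes were chosen after their values were seen, namely SPHK2, ZNF143, OAS3, IFI6, PARP14, MX1, ISG15, B2M, HBEGF, GREB1, MMP1, CDH1, VIM, the genes under the filter and the marker genes of other cell types. Genes, lists and members were chosen with earlier results of these data known. Results for a few genes are not reported here. A list of 13 genes of the mitochondrial genome was not analysed here. Promoter windows came from RefSeq by gene symbol.

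Alternatives were DESeq2 1.42.0, its size factors in edgeR, filterByExpr, no filter, a replicate block, fits of fewer or more libraries, thinning to 16794594 counts per library, summed repeat entries and leaving out each library in turn. The method was tested on simulated data. There each gene had the same spread in all groups, so the wider spread of the HRG pair of 24 h was not covered.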

Additional observations from a re-analysis of the deposited data

Results flagged for a closer look

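The ligand difference depended on time in 34 genes and on the line in 1187 genes in edgeR's quasi-likelihood tests of the interactions, and the genes with the largest such differences are given here as values on the log2 scale. Higher at 24 h than at 12 h were ELF5 (0.69), LMO3 (0.58) and CCNB1 (0.50). Furthest lower at 24 h were WARS1 (-1.78), HLA-B (-1.36), TRNH (-1.31) and GPRC5A (-1.29). TRNH, a mitochondrial histidine tRNA, was the 1 of these 4 in which the difference lay at 12 h: HRG stood at 38.3 and 37.4 CPM and EGF at 17.3 and 17.3 CPM there, against 15.2 and 13.8 CPM and 13.3 and 19.3 CPM at 24 h.

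Furthest higher in BT474R than in BT474 were NDST4 (3.13), ADCY2 (2.25), SOX6 (2.16) and FGD3 (1.95). SOX6, a transcription factor, stood in BT474 at 2.12 and 1.31 CPM with HRG and 3.65 and 3.44 CPM with EGF and in BT474R at 1.28 and 1.20 CPM and 0.682 and 0.431 CPM, where its own difference was not called (1.16 ± 0.40, edgeR adjusted p = 0.12; 0.018 with no filter on low counts). FGD3, a guanine nucleotide exchange factor for CDC42, had 9 counts in all with EGF in BT474R against 29 with HRG, a ratio of 3.62 (95% counting interval 1.67 to 8.68), and its call at 24 h was lost without HRG replicate 2 (1.43) or EGF replicate 2 (1.36). Furthest lower were GBP1 (-10.92), IFI44L (-9.01), SERPING1 (-8.94) and IFIT3 (-8.00). These 4 fitted values rest on groups with almost no counts and are no bounds: GBP1 stood in BT474 at 0 and 0.246 CPM with HRG and 0 and 0.0453 CPM with EGF, and IFIT3 at 0.303 and 0.369 CPM against 0.298 and 0.453 CPM.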

How the results depend on the processing

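With 451 genes higher and 807 lower with HRG, leaving out 1 of the 4 libraries gave between 169 and 846 higher and between 483 and 1184 lower. The genes called changed as well as their number, and part of the 1258 calls was lost in each case. The lone library of a group was assumed to vary like the other groups. The 4 compared libraries alone gave 0 and 0 calls in edgeR, with 2122 genes at an unadjusted p below 0.05, and the 6 libraries of 24 h gave 56 and 341, of which 392 in all were among the 1258 genes called with 20 libraries. The share of calls that were higher was 35.9% with 20 libraries, 14.1% with the 6 libraries and 25.9% without EGF replicate 2. DESeq2 gave 356 and 725, sharing 1037 genes. For 24 h against 12 h, the count of 34 became 207 with no filter, 60 with DESeq2 and 88 with a replicate block within each time point, and between 18 and 227 with 1 library left out. For BT474R against BT474, the count of 1187 became 256 with the 8 libraries compared and between 733 and 1555 with 1 library left out. The cause of these changes was not tested.

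The replicate block gave 474 higher and 854 lower genes, 46 for the time interaction and 1310 for the line interaction. Numbers shared by libraries at 24 h were followed by a correlation of deviations of 0.392 between HRG and EGF, 0.529 between HRG and vehicle and 0.0949 between EGF and vehicle over 11639 genes, and nothing in the labels ties same-numbered cultures, so the block is an alternative only. All 127 named genes kept their direction and their side of the threshold with the replicate block.

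Log2 fold changes whose direction changed in some setting were not called with 20 libraries, and of these ERBB2 was called lower without HRG replicate 2. Over the libraries left out in turn, EGFR ranged from -0.013 to 0.090, ERBB2 from -0.14 to 0.034, ERBB3 from -0.038 to 0.16, SREBF1 from -0.034 to 0.053, SREBF2 from -0.00060 to 0.046 and TRNH from -0.41 to 0.12. SREBF1 was at -0.0019 in the fit of 40 libraries. Of the 127 named genes, 14 lost their call with DESeq2, 43 with the 6 libraries of 24 h, 115 with the 4 compared libraries, 18 and 7 without HRG replicate 1 and 2, and 22 and 37 without EGF replicate 1 and 2.

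With 3 counts equal to about 0.118 to 0.138 CPM in these libraries, levels below this could not be told from 0.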
